A study of Homo sapiens with 9 samples.

Results

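ATF6, ERN1 and XBP1 are the genes of the endoplasmic reticulum (ER) stress sensors ATF6 and IRE1 and of the transcription factor that joins their pathways. They were taken from the deposited array table as the rows whose platform annotation carries 1 of these 3 symbols. Each of the 3 had 1 such row, and all 3 were among the 11163 genes tested, out of 14884 genes with a named row. RNA came from HT-29 cells, an established epithelial line from a human colon adenocarcinoma, and was measured on Affymetrix GeneChip 2.0 ST arrays. There were 3 groups of 3 arrays: untreated cells, which the labels' protocol describes as vehicle-treated, cells exposed to rosemary extract, and cells exposed to carnosic acid, a diterpene of rosemary. All cells were harvested at 24 h, and the series design describes the 3 arrays of a group as biological replicates. All groups are 1 cell line, and no source used here gives a dose for either treatment, so the treatments cannot be set against each other at matched dose. The title of the series names the unfolded protein response and cholesterol metabolism as its subject.

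The unfolded protein response raises the folding and disposal capacity of the ER when unfolded proteins build up there. ATF6 is a membrane-bound transcription factor that moves to the Golgi under stress, where proteases release its active domain. IRE1, the kinase and endoribonuclease encoded by ERN1, splices the messenger RNA of XBP1, and the spliced form encodes an active transcription factor for chaperone, translocation and degradation genes. The XBP1 gene is itself a known ATF6 target, and PERK, encoded by EIF2AK3, is the sensor that acts by phosphorylating eIF2alpha. An array row measures the amount of a messenger RNA. It reads neither the cleavage of ATF6 nor the phosphorylation of IRE1, and no row used here separates spliced from unspliced XBP1.

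The 250 bases before the start of each RefSeq gene model are shown because the members differ in the ER stress elements that this stretch holds. The sequences are those of RefSeq for build GRCh38.p14, given 5′ to 3′ on the strand of the gene, and capitals mark every match to a motif searched. The intervals are chr1:161766070-161766319 on the plus strand for ATF6, chr17:64130145-64130394 on the minus strand for ERN1 and chr22:28800570-28800819 on the minus strand for XBP1. RefSeq gives XBP1 a further, internal start, and the stretch before it, which is not printed, held 0 of the motifs searched.
ATF6: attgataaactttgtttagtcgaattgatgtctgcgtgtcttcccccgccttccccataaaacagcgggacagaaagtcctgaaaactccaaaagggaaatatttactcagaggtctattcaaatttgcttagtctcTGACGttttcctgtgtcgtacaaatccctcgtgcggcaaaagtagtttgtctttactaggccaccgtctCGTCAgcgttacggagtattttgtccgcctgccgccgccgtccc
ERN1: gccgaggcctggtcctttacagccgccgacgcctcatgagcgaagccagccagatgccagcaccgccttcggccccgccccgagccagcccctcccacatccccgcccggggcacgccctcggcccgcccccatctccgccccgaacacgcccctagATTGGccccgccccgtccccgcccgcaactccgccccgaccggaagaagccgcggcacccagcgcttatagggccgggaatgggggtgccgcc
XBP1: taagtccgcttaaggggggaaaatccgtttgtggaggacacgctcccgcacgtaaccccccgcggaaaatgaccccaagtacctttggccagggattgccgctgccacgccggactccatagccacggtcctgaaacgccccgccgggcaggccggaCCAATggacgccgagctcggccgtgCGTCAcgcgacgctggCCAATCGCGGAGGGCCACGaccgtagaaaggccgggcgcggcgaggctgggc
Of the 3, XBP1 was the member with an ER stress element (ERSE, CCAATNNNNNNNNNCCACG), the composite of a CCAAT box and a site known to bind ATF6. It ran from 52 to 34 bases before the start, and its first 5 bases are also counted as a CCAAT box. A further CCAAT box of XBP1 lay from 93 to 89 bases before the start, and the core of a cyclic AMP response element (TGACG) lay on the opposite strand from 68 to 64 bases. The ATF6 stretch held that core on both strands, from 113 to 109 and from 44 to 40 bases before the start. The ERN1 stretch held a CCAAT box on the opposite strand, from 93 to 89 bases before the start, and none of the other motifs searched. ERSE was found in 26 of 35116 RefSeq promoter stretches of this length (0.0740%), against 21.2% for TGACG and 32.0% for CCAAT. The other motifs searched on both strands were ERSE-II (ATTGGNCCACG, in 0.0513% of stretches), the UPRE core (GACGTG, 6.50%), the full CRE (TGACGTCA, 1.65%), the antioxidant response core (TGACNNNGC, 10.9%) and the CARE element (TGATGNAA, 3.14%), and none of these letters occurred in the 3 stretches. GC content was 47.2% for ATF6, 75.2% for ERN1 and 67.6% for XBP1, beside a median of 58.0% over all stretches. A match is a description of letters and not a measured binding site.

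**Figure D1:**
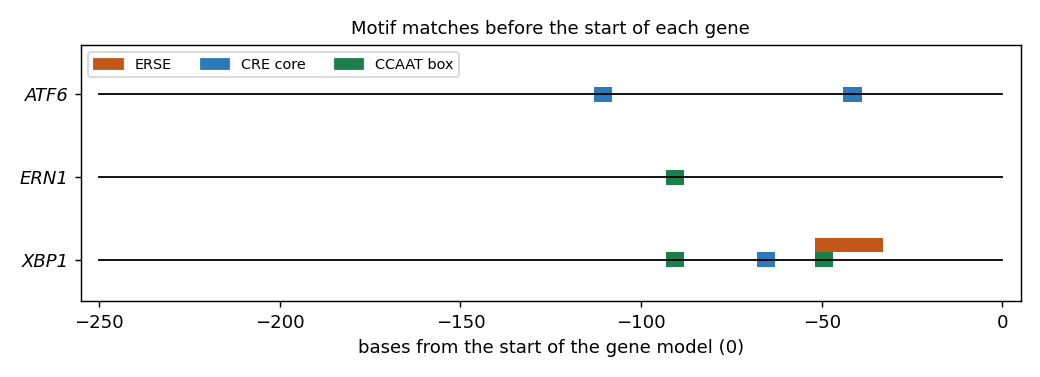
Motif matches in the 250 bases before the start of ATF6, ERN1 and XBP1, plotted against distance from the start in bases. Matches on either strand are drawn on the line of the gene, and the ERSE is raised so that the CCAAT box it overlaps can be seen. XBP1 is the member with an ERSE, between 52 and 34 bases before the start.

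ERN1 had the largest log2 change of the 3 members under both treatments. It was also the dimmest in untreated cells, at percentile 42.9 of genes with a named row, beside 89.6 for ATF6 and 94.4 for XBP1. The ranking makes no allowance for these levels. The deposited log2 values of ERN1 on the untreated arrays were 5.74, 5.27 and 5.65 for replicates 1, 2 and 3. With rosemary extract they were 7.67, 7.37 and 7.05, and with carnosic acid they were 6.36, 6.31 and 6.35. The 3 groups did not overlap: every extract array lay above every carnosic acid array, and every carnosic acid array lay above every untreated one. The group means were 5.55 ± 0.25 (SD, n = 3), 7.36 ± 0.31 and 6.34 ± 0.029 in the same order. Extract raised the mean by 1.81 on the log2 scale (SE 0.153, limma adjusted p 2.757e-06), which is 3.51-fold with a 95% interval of 2.78 to 4.43. Carnosic acid raised it by 0.79 (SE 0.153, adjusted p 0.00422), which is 1.73-fold. These changes placed ERN1 at rank 64 of 11163 by signed change with extract and at rank 180 with carnosic acid. The spread of ERN1 was wide in the untreated and extract groups. Between the closest arrays, a gap of 1.31 still separated extract from untreated cells and a gap of 0.57 separated carnosic acid from untreated cells.

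ATF6 rose by less than ERN1 on the log2 scale but with a smaller spread. Its untreated arrays read 8.78, 8.68 and 8.88, the extract arrays 9.60, 9.51 and 9.47, and the carnosic acid arrays 9.04, 9.04 and 9.0. The order of the groups was that of ERN1, again without overlap. The means were 8.78 ± 0.10 (SD, n = 3), 9.53 ± 0.064 and 9.02 ± 0.020 for untreated, extract and carnosic acid. Extract raised ATF6 by 0.75 (SE 0.0623, limma adjusted p 2.386e-06), or 1.68-fold. Carnosic acid raised it by 0.25 (95% interval 0.11 to 0.38, adjusted p 0.0176), or 1.19-fold, and the closest arrays of those groups were 0.12 apart. That call is the weakest of the rises called for the members. It was lost without untreated replicate 2 (log2 change 0.19, adjusted p 0.0594), without carnosic acid replicate 1 (0.24, 0.0603) or without carnosic acid replicate 2 (0.24, 0.0536), and when every row of the array, named or not, was tested (0.25, 0.0744).

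XBP1 rose with extract and did not pass the test with carnosic acid. The untreated arrays read 9.52, 9.43 and 9.47, the extract arrays 9.97, 10.05 and 9.86, and the carnosic acid arrays 9.64, 9.55 and 9.48. The extract arrays lay above all others, while the carnosic acid and untreated arrays overlapped. The means were 9.47 ± 0.044 (SD, n = 3) for untreated cells, 9.96 ± 0.098 for extract and 9.56 ± 0.084 for carnosic acid. The rise with extract was 0.49 (SE 0.0632, limma adjusted p 7.912e-05), or 1.40-fold. The difference with carnosic acid was 0.08 with a 95% interval of -0.054 to 0.22 (adjusted p 0.391), so a rise of up to 0.22 on the log2 scale lies within the interval. It was 0.037 after cyclic loess scaling, 0.038 with each array centred on the median of the genes tested, and 0.041 without carnosic acid replicate 1. Other alternatives raised it, to 0.12 under median centring and to 0.12 at most with 1 array left out, and none brought it past the threshold. Untreated and carnosic acid-treated cells were thus the neighbours in the order of XBP1 levels that did not differ beyond their spread, the only such pair among the 3 members.

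**Figure D2:**
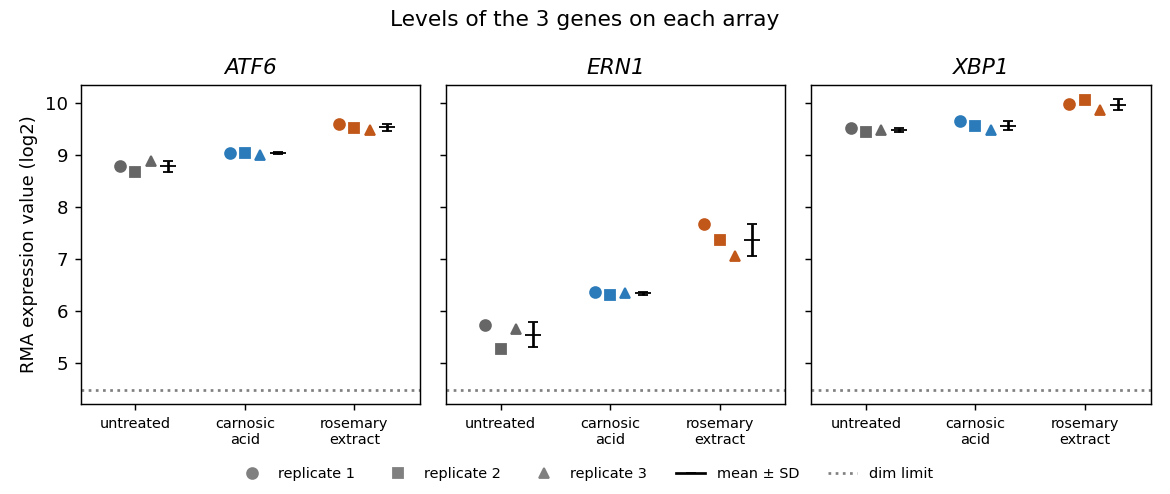
Deposited log2 expression values of ATF6, ERN1 and XBP1 on each of the 9 arrays, by group, with 1 point per array, group means with SD as bars, and the dim limit as a dotted line. The carnosic acid arrays lie between the untreated and extract arrays for ATF6 and ERN1, and overlap the untreated arrays for XBP1.

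The members' calls stand beside large shares of all genes. With extract, 21.8% of the genes tested were called higher and 16.3% lower at an adjusted p under 0.05, and 3 of 3 members were called higher. All 3 members had every extract array above every untreated array, a pattern that 25% of genes showed. With carnosic acid, 12.9% of genes were called higher and 6.12% lower, and 2 of 3 members were called higher. Those 2, ATF6 and ERN1, had every carnosic acid array above every untreated array, as did 19.7% of genes. The carnosic acid split depended on the scaling: 1440 genes were called higher and 683 lower on the deposited values, and 1207 and 1098 after each array was centred on the median of the genes tested, a setting added after the data were seen. Without carnosic acid replicate 1, 367 were called lower. The signed change of ATF6 lay at percentile 94.9 of all genes with extract and at percentile 84.5 with carnosic acid. For XBP1 the percentiles were 89.4 and 67.7, and for ERN1 they were 99.4 and 98.4. Both comparisons use the same 3 untreated arrays and are therefore not independent. For a single gene, an exact permutation test of 3 arrays against 3 cannot give a two-sided p under 0.1. It gave 0.1 for each comparison of a member but XBP1 with carnosic acid against untreated, where it gave 0.2.

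**Figure D3:**
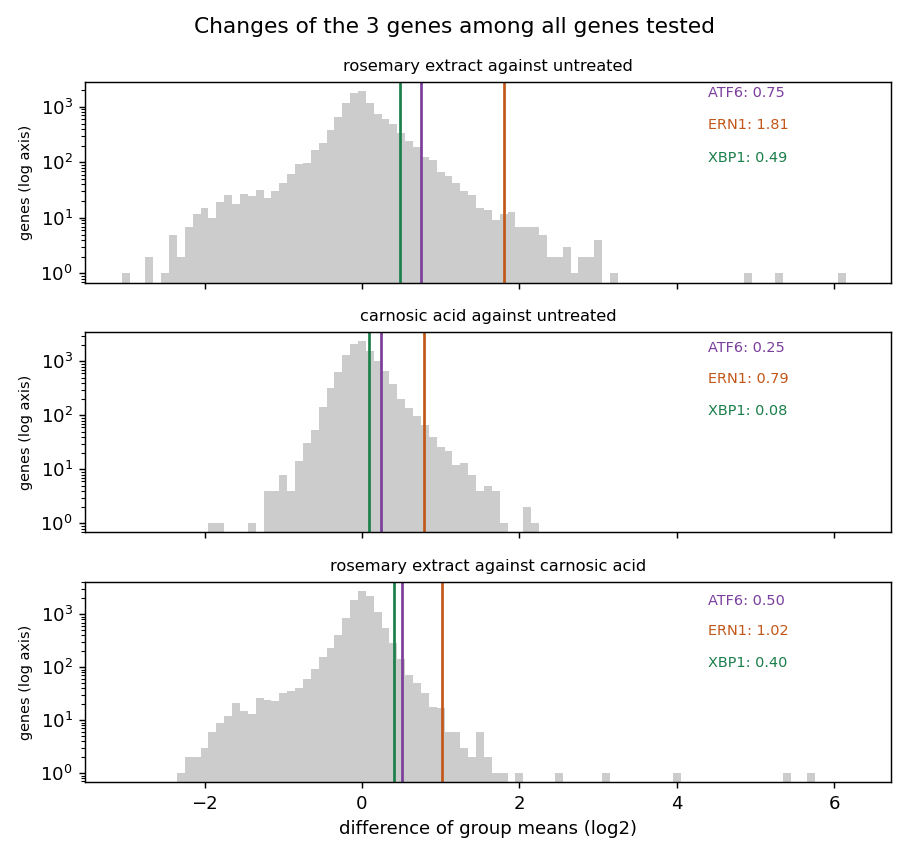
Distribution of the log2 change over all 11163 genes tested in each comparison, with the changes of ATF6, ERN1 and XBP1 marked by lines. ERN1 lies far in the upper tail in every comparison, and XBP1 lies near the body of the distribution for carnosic acid against untreated.

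The arrays of extract-treated cells were higher than those of carnosic acid-treated cells for all 3 members. The difference was 1.02 for ERN1 (95% interval 0.69 to 1.36, limma adjusted p 0.000756), or 2.03-fold. It was 0.50 for ATF6 (0.37 to 0.64, adjusted p 0.000193) and 0.40 for XBP1 (0.27 to 0.54, adjusted p 0.000989). Of all genes, 8.24% were called higher and 9.07% lower with extract than with carnosic acid, and 16.2% had every extract array above every carnosic acid array, as all 3 members did. The number called higher, 920 genes, was 551 without extract replicate 1, 532 without extract replicate 2 and 612 without carnosic acid replicate 2. ERN1 ranked 36, ATF6 274 and XBP1 465 of 11163 by this signed difference. The closest arrays were 0.69 apart for ERN1, 0.44 for ATF6 and 0.21 for XBP1.

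EIF2AK3, the gene of the remaining sensor PERK, rose with both treatments by similar amounts. Its untreated arrays lay between 6.61 and 6.92, its extract arrays between 7.23 and 7.54, and its carnosic acid arrays between 7.25 and 7.41. It rose by 0.57 with extract (limma adjusted p 0.00101) and by 0.54 with carnosic acid (adjusted p 0.00404). The extract and carnosic acid arrays overlapped, with a difference of 0.03 and a 95% interval of -0.20 to 0.26 (adjusted p 0.889). The difference of each member from EIF2AK3 was then taken within each array and compared between the treatments. It was larger with extract by 0.99 for ERN1, by 0.47 for ATF6 and by 0.37 for XBP1, without overlap of the 3 and 3 arrays. The exact permutation p was 0.1 for each, the smallest possible. Because EIF2AK3 itself differed by 0.03, these values largely repeat the members' own differences and are no separate evidence.

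The genes that work with the sensors moved in both directions. Of the 9 tested genes other than the members in a list of 17 sensors, paralogs and processing partners, 4 rose and 2 fell with each treatment. Over all genes 21.8% were higher and 16.3% lower with extract, and 12.9% and 6.12% with carnosic acid, so the lower count with extract is near that of all genes. ATF6B, the paralog of ATF6, rose by 0.42 with extract (limma adjusted p 1.065e-05) and by 0.28 with carnosic acid (adjusted p 0.000824). RTCB, the ligase that joins the exons of XBP1 after IRE1 cleavage, rose by 0.43 with extract and by 0.25 with carnosic acid. RTRAF, a subunit of the same ligase complex, fell by 0.23 with each treatment (adjusted p 0.00371 and 0.0104), the latter lost under median centring (0.0508). CREBZF, a bZIP protein, rose by 0.31 with each, the carnosic acid call being lost when every row was tested (adjusted p 0.0621). The DDX1 helicase, a further subunit, read -0.15 with extract and -0.19 with carnosic acid, and these calls held in 6 and 8 of 20 alternative settings. Leaving out any 1 array but untreated replicate 1 ended the extract call (adjusted p 0.0532 to 0.156), and untreated replicate 2 or 3, extract replicate 2 or any carnosic acid replicate ended the carnosic acid call (0.0528 to 0.103). ERN2, the IRE1 paralog of mucosal epithelium, read -0.29 with extract (adjusted p 0.0627) and 0.06 with carnosic acid (adjusted p 0.750), neither past the threshold. The site-1 and site-2 proteases that cleave ATF6 (MBTPS1, MBTPS2) have no named row here.

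**Figure D4:**
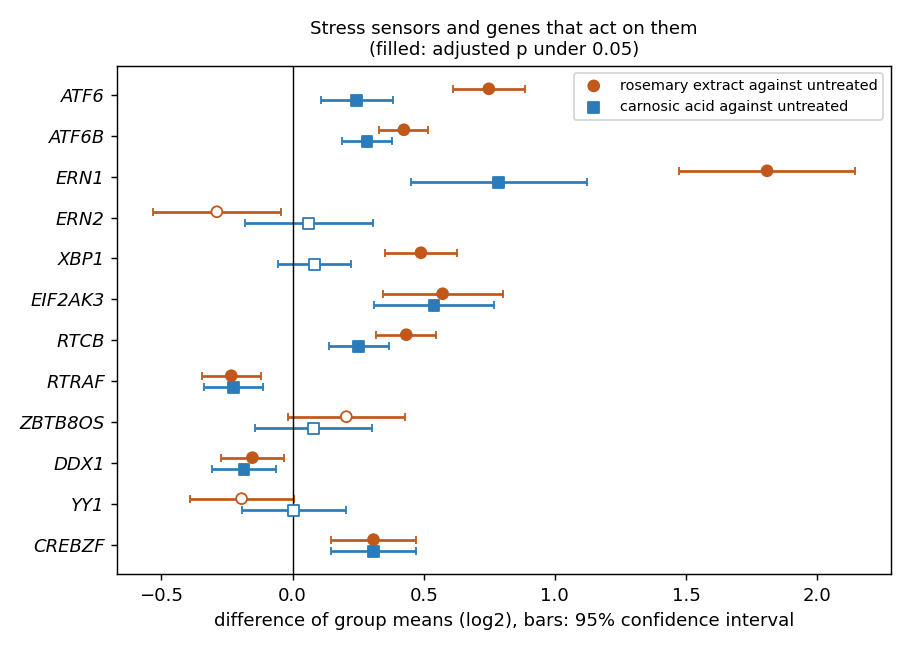
Log2 change of each tested sensor, paralog and processing partner with rosemary extract and with carnosic acid against untreated cells, with 95% intervals from limma, and filled points where the adjusted p was under 0.05. ERN1 shows the largest rise with each treatment, and the intervals of EIF2AK3 for the treatments overlap almost entirely.

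Relatives of ATF6 that are also released from the ER membrane were measured by 5 rows, and 2 of the 5 rose with each treatment. Over all genes, 21.8% were called higher with extract and 12.9% with carnosic acid. CREB3L2 rose by 1.19 with extract (limma adjusted p 6.201e-07) and by 0.70 with carnosic acid, and CREB3 rose by 0.89 and 0.49. CREB3L1, CREB3L3 and CREB3L4 did not pass the test in any comparison. Among 9 tested signalling partners of IRE1, 2 rose and 3 were called lower with extract, beside 21.8% and 16.3% of all genes, so the share that rose is that of all genes. With carnosic acid 1 rose and 0 fell, beside 12.9% and 6.12% of all genes, so the share that rose is near that of all genes. MAP2K4, a kinase upstream of JNK, rose by 1.0 with extract and by 0.81 with carnosic acid (adjusted p 0.000239 and 0.00308). RNF13, named after its values were seen, was called higher by 0.19 with extract (adjusted p 0.0403), and whether this call holds in the alternatives was not checked. TXNIP, whose message is known to be stabilised downstream of IRE1, fell by 0.50 with extract (adjusted p 0.000918). MAPK9 (-0.24) and MAP3K5 (-0.23) were called lower with extract, but MAPK9 lost the call without extract replicate 3 (adjusted p 0.0607). MAP3K5 lost it without untreated replicate 3 (0.128), without any 1 of the extract replicates (0.0738 to 0.0907) and without carnosic acid replicate 2 (0.0524).

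The known XBP1 targets tested are mainly genes of translocation into the ER and secretion. With extract, 12 of 16 tested genes of a list of 28 rose and 0 fell, beside 21.8% and 16.3% of all genes, with a median change of 0.54 beside -0.018. With carnosic acid, 9 rose and 0 fell, beside 12.9% and 6.12% of all genes, with a median of 0.31 beside -0.011, although the XBP1 row itself did not pass the test there. ARFGAP3, which acts in Golgi to ER transport, rose by 1.40 with extract and 1.07 with carnosic acid. GFPT1, the entry enzyme of hexosamine synthesis, rose by 0.97 and 0.30, and differed between the treatments by 0.67 (limma adjusted p 2.99e-06). SEC61A1, the pore of the ER translocon, rose by 0.61 and 0.38, and TRAM1, which assists it, rose by 0.61 and 0.37, the latter being 0.57 when all rows of the gene were averaged. Extract exceeded carnosic acid in 8 of the 16 and fell below it in 0, beside 8.24% and 9.07% of all genes. Over the alternatives, the count called higher ran from 10 to 13 with extract and from 6 to 10 with carnosic acid. For extract against carnosic acid it ran from 6 to 10.

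The known ATF6 targets did not move as 1 group. Of 8 tested genes of a list of 14, 3 rose and 2 were called lower with extract (21.8% and 16.3% of all genes), with a median of -0.086. With carnosic acid 3 rose and 0 fell (12.9% and 6.12% of all genes). SEL1L, the adaptor of the degradation ligase HRD1, rose by 1.03 with extract and by 0.35 with carnosic acid. The ER chaperone HYOU1 rose by 0.80 and 0.41, and by 0.47 and 0.20 when all rows of the gene were averaged. CANX, the lectin chaperone calnexin, rose by 0.39 with extract and was called at 0.15 with carnosic acid in 6 of 20 alternative settings, its adjusted p being 0.0527 to 0.158 without untreated replicate 2 or 3, extract replicate 1 or 2, or any carnosic acid replicate. The calls for lower CALR (-0.094, named after its values were seen) and CRELD2 (-0.26) with extract held in 7 and 8 of 20 alternative settings, and the count of lower genes ranged from 0 to 2 over the settings. Leaving out any 1 array but untreated replicate 2 ended the CALR call (adjusted p 0.0571 to 0.148), and leaving out any but untreated replicate 1 and extract replicate 3 ended the CRELD2 call (0.0583 to 0.187). The count was 0 without untreated replicate 3, without extract replicate 1 or 2, and without any 1 of the carnosic acid replicates. HSPA5 and HSP90B1, the most used markers of ATF6 activity, have no named row here.

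Genes of ER-associated degradation are known to be induced in part by both XBP1 and ATF6. Of the 12 tested, 10 rose with extract and 7 with carnosic acid, and 0 fell with either. Over all genes, 21.8% and 12.9% were called higher, and 16.3% and 6.12% lower. ERLEC1, a lectin of this pathway, rose by 0.82 and 0.58, and DERL1, a retrotranslocation channel subunit, by 0.74 and 0.46. Extract exceeded carnosic acid in 6 of the 12, beside 8.24% of all genes. That count fell to 3 without extract replicate 1 or 2 and without carnosic acid replicate 2 or 3. Genes of the PERK and ATF4 arm, ATF4 included (0.21), rose in 7 of 9 with extract, beside 21.8% of all genes, and 0 fell. Their median was 1.23, beside -0.018 over all genes. ATF3 (-0.066, limma adjusted p 0.759) and NFE2L2 (-0.023, adjusted p 0.812) did not pass the test. With carnosic acid 5 of 9 rose, beside 12.9%, and 0 fell. The count was 3 without untreated replicate 1, without carnosic acid replicate 1 or without carnosic acid replicate 2, and 2 when every row was tested. ATF4 was not among the 5, at -0.12 with carnosic acid (limma adjusted p 0.188). Substrates of the RNA decay activity of IRE1 were covered by 2 tested genes of 8. HGSNAT read 0.43 higher with extract (limma adjusted p 0.0117, and 0.0586 without extract replicate 2), and PER1 read 0.12 (adjusted p 0.308).

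**Figure D5:**
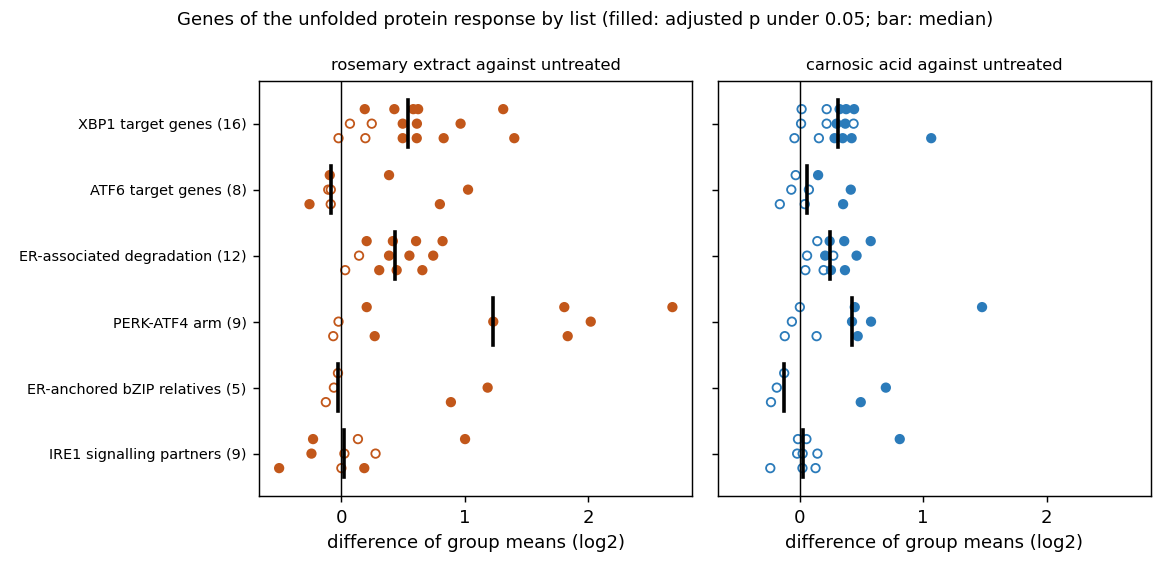
Log2 change against untreated cells of each tested gene in 6 lists, with 1 point per gene, 1 panel per treatment and a bar at the median of each list. Filled points have an adjusted p under 0.05. The XBP1 target points lie mostly above 0 in both panels, and the ATF6 target points lie on both sides of it.

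Across the 9 arrays, the log2 values of ATF6 and ERN1 had a Pearson r of 0.981, those of ATF6 and XBP1 0.947, and those of ERN1 and XBP1 0.928. The 9 arrays are 3 groups of 3, so these values mainly describe the order of the group means. The 5 genes closest to ATF6 were GTPBP2, LPIN2, SMIM13, TBRG1 and YARS1, with r from 0.992 to 0.994. The 5 closest to ERN1 were CAST, KDM4A, VDAC2, HAPSTR1 and ZNF655, with r from 0.993 to 0.997. The 5 closest to XBP1 were NEBL, DDRGK1, ANXA6, RNF11 and HCG18, with r from 0.984 to 0.989.

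Over all rows, the medians of the 9 arrays ran from 4.82 to 4.90, and arrays of a group correlated at 0.992 or above. Markers of colon epithelium had named rows for 8 of 11 genes and included high levels in untreated cells, such as KRT18 at 12.59 and EPCAM at 11.36. With each treatment 1 of the 8 rose (KRT20, by 0.77 with extract and 0.88 with carnosic acid) and 3 fell: VIL1 read -1.29 and -0.35, KRT18 -0.48 and -0.31, and EPCAM -0.19 and -0.21. Over all genes, 21.8% were called higher and 16.3% lower with extract, and 12.9% and 6.12% with carnosic acid. The share of these markers that rose with carnosic acid is thus near that of all genes. The log2 of the summed epithelial markers was 13.44 to 13.50 in untreated, 13.26 to 13.37 in extract and 13.42 to 13.44 in carnosic acid arrays, so extract arrays lay below the others. Goblet cell markers matter here because XBP1 is needed in secretory epithelium. They had named rows for 7 of 10 genes, and 5 of these passed the dim limit. The summed signal of the 7, on the log2 scale, was 9.23 to 9.38 in untreated, 9.66 to 9.80 in extract and 9.71 to 9.87 in carnosic acid arrays, so both treatments lay above untreated cells. SPDEF rose by 0.71 with extract and 0.92 with carnosic acid. The median change of the 5 genes that passed the dim limit was 0.13 and -0.12, opposite in sign to the change of the sum for carnosic acid. AGR2 read 0.50 and -0.13, FCGBP -0.12 and -0.13, TFF1 0.13 and 0.31, and TFF3 -0.26 and -0.12. The extract call for TFF3 (adjusted p 0.0497) was lost without any 1 array but untreated replicate 3 (0.0555 to 0.182). The part of these markers in the results for the members was not tested. Fibroblast markers had named rows for 4 of 10 genes, and 2 of these passed the dim limit. The summed level of the 4 was 7.18 to 7.41, 7.07 to 7.18 and 6.94 to 7.31 in the same order. Leukocyte markers had named rows for 4 of 10 genes, led by LYZ, which epithelium also expresses. Their summed level was 12.42 to 12.50, 12.19 to 12.23 and 12.31 to 12.47 in the same order, lower in extract arrays without overlap, and LYZ fell by 0.26 with extract (limma adjusted p 0.000818) and by 0.49 when all its rows were averaged.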

How the data were processed

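RNA of 9 arrays, 3 per group, was measured. The authors deposited log2 expression values made by RMA in the oligo package of R, per the labels; RMA background-corrects and quantile-normalizes the arrays and combines the probes of each row. Its version and the authors' annotation are not stated in the sources used. Large folds are compressed by RMA, no value comes with a detection call, and 3 arrays per group limit the precision.

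Of 53617 rows, 16098 had 1 gene symbol in the platform annotation, 0 had several and 37519 were unnamed. For each gene the row with the highest mean was kept, and the dimmest 25% (3721 genes, below 4.50 on the log2 scale) were removed. Group means were fitted to all 9 arrays with limma 3.58.1 in R 4.3.3 (lmFit, then eBayes with trend, on 6 residual degrees of freedom), two-sided, with Benjamini-Hochberg adjustment over 11163 genes, and a gene was called at an adjusted p under 0.05. The code was tested on simulated data. Identical values were found in 0 pairs of arrays. The sources name no batch.

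The members, the gene lists and the alternatives were chosen with earlier results of these data known. Named genes are the members, tested sensors and partners, up to 4 genes per other list with the smallest p, and the 5 genes with the highest Pearson r with each member. Other genes were named outside this rule, after their values were seen. These are RNF13, CALR, ATF4, ATF3, NFE2L2, the bZIP relatives past the first 4, the cell type markers and the genes with an ERSE. Motifs were matched on both strands in RefSeq promoter sequences with Python 3.11.15. Alternatives changed the scaling, dim filter, row choice, features tested, arrays in the fit, trend, array weights and replicate block, and left out each array in turn.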

Additional observations from a re-analysis of the deposited data

How the results depend on the processing

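Of the 9 member comparisons, 8 kept their direction and their side of the threshold in all 20 alternatives, and ATF6 with carnosic acid against untreated did in 16 of 20. That change was 0.25 (adjusted p 0.0744) when every row was tested, and leaving out 1 array gave 0.19 to 0.30. Over all alternatives ERN1 ranged from 1.66 to 1.96 with extract and from 0.65 to 0.88 with carnosic acid, and XBP1 from 0.44 to 0.54 and from 0.037 to 0.12. The number of genes called for extract against untreated was 4256, and 7230 when every row was tested. Leaving out 1 array gave 1384 (without carnosic acid replicate 1) to 2123 for carnosic acid against untreated and 1288 (without extract replicate 2) to 1964 for extract against carnosic acid, where all arrays gave 2123 and 1933. Deviations of same-numbered arrays correlated at r -0.22 to 0.24, within the -0.36 to 0.28 of other numbers. The numbers thus gave no clear sign of pairing, though so few arrays cannot exclude it. With the replicate number as a block, 4226, 2194 and 1947 genes were called for extract against untreated, carnosic acid against untreated and extract against carnosic acid, and no member call changed. The cause of these shifts was not tested beyond the number of features or arrays in each fit.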

Other observations

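The genes with an ERSE in the 250 bases before an annotated start were counted after the data had been seen. Of the tested genes, 10 held one, XBP1 among them, and the others were CALR, CANX, CRELD2, FICD, SERP1, SYNPO, TMEM120A, TRIM5 and ZNF17. HSPA5, HSP90B1 and PDIA6 also held an ERSE but have no named row, so they are not among the 10. With extract 4 of the 10 were called higher (40.0%) and 2 lower (CALR and CRELD2, calls that most alternatives ended), with a median log2 change of 0.15. XBP1 is itself 1 of the 4, so this count is no separate evidence on the member. Among 8486 tested genes with a promoter sequence, 22.9% were called higher and 1461 of the 8486 were called lower, with a median of -0.014. The 2 lower calls of 10 are thus near the share of these genes. With carnosic acid 2 of the 10 were called higher (20.0%), beside 13.8%, and 0 were called lower, beside 521 of the 8486. The second element, ERSE-II, lay before 15 tested genes, of which 3 were called higher with extract (20.0%, beside 22.9%) and 1 with carnosic acid (6.67%, beside 13.8%). Of these 15, 2 were called lower with extract and 0 with carnosic acid, beside 1461 and 521 of the 8486. SERP1, a translocon-associated protein, rose by 0.83 with extract (limma adjusted p 3.319e-05), and TRIM5, a restriction factor, rose by 0.33 (adjusted p 0.00498). FICD, which modifies the chaperone encoded by HSPA5, read 0.14 (adjusted p 0.302).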
